A study of Mus musculus with 6 samples.

Results

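The 10 genes described here belong to the cell's core defence against superoxide and hydrogen peroxide, and were measured in hematopoietic stem cells (HSCs) of mice treated with insulin-like growth factor 1 (IGF1). They are the 6 peroxiredoxins Prdx1 to Prdx6, the superoxide dismutases Sod1 and Sod2, catalase (Cat) and thioredoxin (Txn1), chosen by gene family from the 21878 symbols listed for each library. All 10 passed the filter on low values, which 10449 genes passed.

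Superoxide, which leaks from mitochondria and is made by NADPH oxidases, is turned into hydrogen peroxide by superoxide dismutases, Sod1 mainly in the cytosol and Sod2 in the mitochondrial matrix. Catalase then breaks hydrogen peroxide down in peroxisomes, glutathione peroxidases do so with glutathione, and most peroxiredoxins do so with electrons passed on by thioredoxin from NADPH. HSCs are known for keeping oxidant levels low, and a rise of oxidants in them is associated with loss of quiescence.

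The cells were CD34-Flk2-Lin-Sca1+c-Kit+ HSCs sorted from the bone marrow (BM) of wild-type mice, 3 libraries of vehicle-treated control mice and 3 of mice given recombinant IGF1, with 200 µg/kg under the skin stated in the study's methods and day 1 in its figure legends. One protocol field names the treated mice IR where the title, the treatment label and the design name IGF1, and IGF1 was used. Age, sex and the number of mice behind a library were not given in the sources used here, and nothing says that the libraries came from separate mice, so p-values measure only the spread between these libraries, which may be technical. Values are FPKM, the fragments on a gene relative to its length and to all fragments of the library.

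Reads on listed genes came to about 11206800 to 15973834 a library, and the 10 genes held between 613 and 11388 reads each in every library, so that counting error alone was at most 4.04% of a value. Control replicate 2 stood apart. Chi-squared per gene was 1.52 between control replicates 1 and 3 and 1.69 to 1.89 among the IGF1 libraries, but 229 and 231 between control replicate 2 and the other control libraries, and 24.6 to 28 between it and the IGF1 libraries. The change of each of the 10 genes is therefore given with and without control replicate 2. Changes of single pathway and marker genes are given with all 6 libraries only, and counts without that library for some lists. Of 15 HSC marker genes 13 passed the filter, all but Tek and Hoxb5 (Slamf1, which encodes CD150, at 0.736 to 2.41 FPKM), and the list summed to 596.8 to 771.2 FPKM in control and 510.5 to 527.2 FPKM in IGF1 libraries. Transcripts of Cd34 (230.2 to 640.0 FPKM) and of Flt3, which encodes Flk2 (116.6 to 188.0 FPKM), were present in all 6 libraries although the sort selects cells without these surface proteins.

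The promoters of 9 of the 10 genes had an entry in the RefSeq table (GRCm38.p6), and Prdx6 had none. They were searched on both strands, from 250 bases before to 50 after the start, for TGACNNNGC, the core of the antioxidant response element bound by NRF2, and for CCAAT, the box bound by NF-Y. The first was in 2 of the 9 promoters, those of Prdx1 and Sod1, and in 12.4% of all 32851 promoters. The second was in 4 of the 9 (Prdx4, Sod1, Sod2 and Cat) and in 37.4% of all. The promoter of Cat held 4 copies of CCAAT, and 1.06% of all promoters held 4 or more. A match is a run of letters and not a shown binding site. The 250 bases before the start are given for the 2 genes with the first motif and for Cat, 5′ to 3′ on the gene's strand, with TGACNNNGC in capitals for Prdx1 and Sod1 and CCAAT in capitals for Cat. On the strand shown a match to the reverse strand reads GCNNNGTCA or ATTGG.
Prdx1 (chr4:116685349-116685598, plus strand): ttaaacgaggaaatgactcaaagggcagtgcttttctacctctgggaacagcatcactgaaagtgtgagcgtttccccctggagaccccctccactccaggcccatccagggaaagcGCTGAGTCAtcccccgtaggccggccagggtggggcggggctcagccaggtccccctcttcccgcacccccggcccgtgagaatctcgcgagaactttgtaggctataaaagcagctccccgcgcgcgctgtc
Sod1 (chr16:90220512-90220761, plus strand): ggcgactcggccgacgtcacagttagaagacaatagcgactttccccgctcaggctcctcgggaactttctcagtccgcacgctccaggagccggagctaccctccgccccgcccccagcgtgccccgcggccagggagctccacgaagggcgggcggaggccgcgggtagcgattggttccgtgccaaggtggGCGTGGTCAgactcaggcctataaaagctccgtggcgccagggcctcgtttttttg
Cat (chr2:103485154-103485403, minus strand): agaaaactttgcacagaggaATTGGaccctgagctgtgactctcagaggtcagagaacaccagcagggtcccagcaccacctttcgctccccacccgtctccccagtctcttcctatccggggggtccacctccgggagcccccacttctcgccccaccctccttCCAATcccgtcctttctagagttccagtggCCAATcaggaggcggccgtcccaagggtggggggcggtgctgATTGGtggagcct
The match lay 133 bases before the start of Prdx1 and 56 bases before that of Sod1, both on the reverse strand. In Cat the 4 copies lay 230, 85, 55 and 13 bases before the start, the outer 2 on the reverse strand. Of the 2 genes with TGACNNNGC, Sod1 had the higher mean in the IGF1 libraries and Prdx1 the lower, a direction that turned for Prdx1 under 1 of the 2 removals of length and GC trends (0.22, and -0.12 with the implied length, on the log2 scale).

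In IGF1 versus control HSCs, the 10 genes did not share a direction. Prdx5 rose, by 2.09-fold in the mean FPKM, and was the only one of the 10 called at a fold over 2 and an adjusted p under 0.05 (limma on log2(FPKM + 1), Benjamini-Hochberg). Among all tested genes 6.61% were called, 1.98% higher and 4.63% lower. Prdx3, Prdx6 and Sod2 passed the adjusted p but not the fold, on the lower side, so 4 of 10 passed it alone (1 higher and 3 lower), beside 20.4% of all genes (6.26% higher and 14.1% lower). The other 6 missed the adjusted p, and their values are given without a call. The groups did not overlap for 7 genes, with the IGF1 libraries higher for Prdx4 and Prdx5 and lower for Prdx1, Prdx3, Prdx6, Sod2 and Cat, beside 59.4% of all genes (21.9% higher and 37.4% lower). The RNA comes from many cells, so fewer cells of a type and less RNA per cell cannot be told apart.

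**Figure D1:**
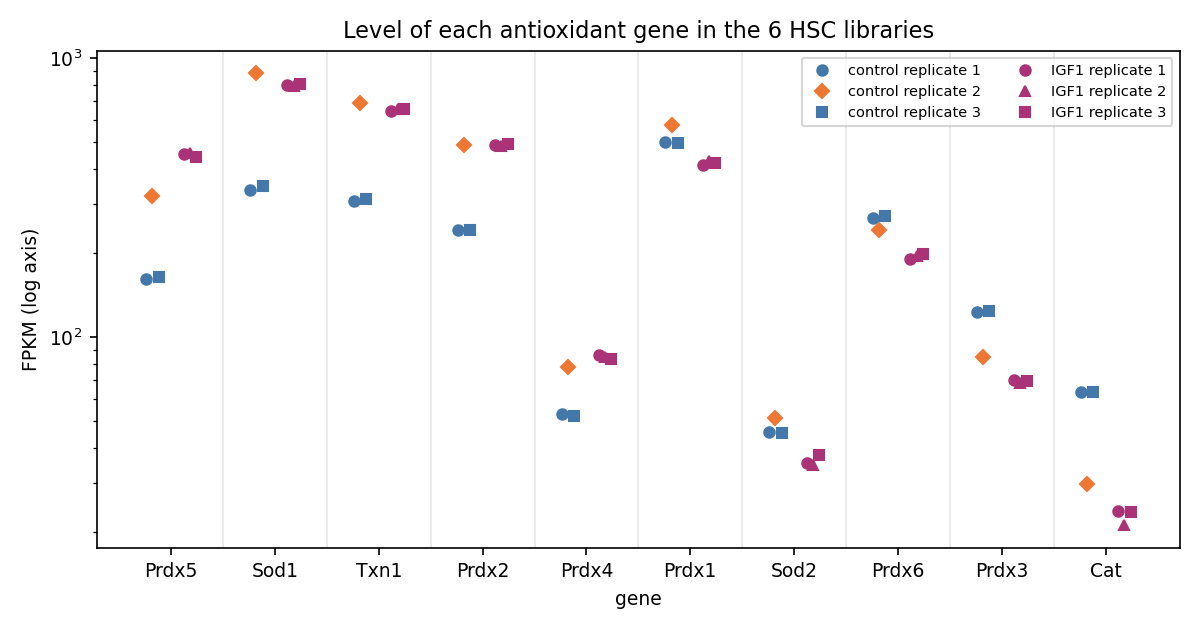
FPKM of each gene (log axis) in the 3 control libraries (blue, replicate 2 in orange) and the 3 IGF1 libraries (purple), with genes ordered by their fold between the IGF1 libraries and control replicates 1 and 3. The IGF1 libraries lie close together for every gene, and control replicate 2 reaches or passes them for Sod1, Txn1 and Prdx2.

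Without control replicate 2, 5 of the 10 were called: Prdx2, Prdx5, Sod1 and Txn1 rose and Cat fell. Among all genes 32.9% were then called, 12.3% higher and 20.6% lower. All 10 passed the adjusted p, 5 in each direction, beside 88.5% of all genes (34.9% higher and 53.6% lower). None of the 10 overlapped between groups, 5 on each side, beside 91.9% of all genes (36.7% higher and 55.2% lower). The median log2 fold change of the 10 was 0.09 with all libraries and 0.22 without control replicate 2, beside medians over all genes of -0.18 and -0.24. The median over all genes was 0.06 after scaling to the 75th percentile and -0.04 after TMM scaling, and of all called genes 29.96% were on the higher side without scaling, 65.28% with the first and 47.74% with the second. Relative to the median over all genes, the differences with all libraries ranged from -0.90 (Cat) through -0.13 (Prdx1) to 1.32 (Prdx5).

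Among the thioredoxin-dependent peroxidases, Prdx5, which is found in mitochondria, peroxisomes and the cytosol, rose. It lies at chr19:6906697-6910106 (GRCm38, minus strand) and overlaps Trmt112 on the opposite strand. Its levels, here and throughout in the order of the replicate numbers, were 161.4, 319.8 and 165.0 FPKM in the control libraries and 451.6, 458.7 and 442.2 FPKM in the IGF1 libraries. Every IGF1 library lay above every control library, with control replicate 2 in between. The log2 fold change was 1.14 (SE 0.29, limma adjusted p = 0.0459), and 1.46 without control replicate 2 (adjusted p = 3.2e-11). It was 0.92 after trends of length and GC content had been removed and 0.13 when the length implied by the steps of the values was used, and over all 21 alternatives its adjusted p ranged from 1.13e-11 to 0.273. The call was lost when any 1 of the 5 libraries other than control replicate 2 was left out, with log2 fold changes of 0.97 to 1.15.

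Prdx2, the abundant cytosolic peroxidase of red cells, stood at 241.8, 486.9 and 243.0 FPKM in the control libraries and at 489.9, 484.2 and 490.5 FPKM in the IGF1 libraries. Control replicate 2 lay within the range of the IGF1 libraries, and the other control libraries were at about a 2-fold lower level. Its log2 fold change was 0.67 (SE 0.30, limma adjusted p = 0.110), and 1.01 without control replicate 2 (adjusted p = 1.4e-10). The gene (chr8:84969587-84974834) overlaps Rnaseh2a and Junb on the opposite strand. Of 18 erythroid marker genes 10 passed the filter, and the list summed to 385.2 to 538.6 FPKM in control and 277.5 to 295.3 FPKM in IGF1 libraries, mostly Car2. Alas2 and Slc4a1, which mark maturing red cells, were below 1 FPKM in every library, but globin transcripts were detected. Hba-a1 was at 5.81 to 31.2 FPKM, Hbb-bs at 4.08 to 33.2 FPKM and Hbb-bt at 17.7 to 26.4 FPKM, all 3 highest in control replicate 2 and overlapping between the groups. Hemgn, an erythroid nuclear protein, was the only one of the list called, lower by limma (log2 fold change -1.54, adjusted p = 0.0307). Among all tested genes 4.63% were called lower. The mature lineage mix in the study's methods for HSC analysis includes a red cell marker. The part of red cells in the Prdx2 values was not tested.

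Prdx1, another cytosolic member (chr4:116685544-116700822), was at 501.6, 574.1 and 494.7 FPKM in control and 415.2, 427.1 and 419.4 FPKM in IGF1 libraries. The IGF1 libraries were all lower, and control replicate 2 was the highest of the 6. The fitted log2 fold change was -0.31 (SE 0.14, limma adjusted p = 0.107), -0.24 without control replicate 2 (adjusted p = 5.5e-06), and turned to 0.22 once the length and GC trends had been removed but stayed at -0.12 with the implied length. Within each library the ratio of Prdx2 to Prdx1, which no scaling of a library can move, was 0.482, 0.848 and 0.491 in control and 1.18, 1.13 and 1.17 in IGF1 libraries. Prdx1 was thus the more abundant of the pair in every control library and Prdx2 in every IGF1 library.

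Prdx3, the peroxiredoxin of the mitochondrial matrix (chr19:60864051-60874556), was at 123.4, 84.7 and 123.9 FPKM in control and 70.1, 68.5 and 69.6 FPKM in IGF1 libraries. All IGF1 libraries lay below all control libraries. Limma gave a log2 fold change of -0.64 (SE 0.17, limma adjusted p = 0.0484), and -0.82 without control replicate 2 (adjusted p = 3.3e-09), short of a 2-fold difference in both. The ratio of Prdx5 to Prdx3 was 1.31, 3.77 and 1.33 in control and 6.45, 6.70 and 6.36 in IGF1 libraries, without overlap.

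Prdx4, the member of the endoplasmic reticulum, where it takes part in oxidative protein folding (chrX:155323918-155340754), was at 53.1, 78.1 and 52.4 FPKM in control and 86.4, 85.1 and 83.4 FPKM in IGF1 libraries. The IGF1 libraries were higher throughout, with control replicate 2 nearest to them. On the log2 scale the fold change was 0.49 (SE 0.17, limma adjusted p = 0.0719), and 0.68 without control replicate 2 (adjusted p = 2.5e-08). In the list of thioredoxin and peroxiredoxin recycling 4 of 19 tested genes were called lower, beside 4.63% of all genes. This list holds 3 genes of disulfide formation, of which Pdia3 and P4hb were picked with their values known. Ero1l, the oxidase that makes hydrogen peroxide in this compartment, fell from 11.9, 5.51 and 12.7 FPKM in control to 2.94, 2.96 and 2.30 FPKM in IGF1 libraries (limma adjusted p = 0.0380), and Pdia3, a protein disulfide isomerase, fell by 1.74 on the log2 scale (limma adjusted p = 0.0470), while P4hb, another isomerase, was at -0.21 (limma adjusted p = 0.192).

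Prdx6, which uses glutathione in place of thioredoxin and is also a phospholipase (chr1:161240112-161251219), was at 267.1, 242.6 and 272.1 FPKM in control and 191.1, 195.3 and 199.3 FPKM in IGF1 libraries. All IGF1 libraries were lower, and here control replicate 2 lay nearer to the other control libraries. The fit gave a log2 fold change of -0.41 (SE 0.11, limma adjusted p = 0.0491), and -0.46 without control replicate 2 (adjusted p = 1.4e-07). It was -0.04 once the length and GC trends had been removed and 0.00 with the implied length. Prdx6b, its close paralog, was listed at 0 in all 6 libraries, and reads of pseudogenes named after Prdx2, Prdx6 and thioredoxin could have been split between copies in the counting.

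Of the superoxide dismutases, Sod1 (chr16:90220754-90226329, overlapping Scaf4 on the opposite strand) was at 336.8, 881.2 and 347.0 FPKM in control and 800.5, 796.6 and 810.0 FPKM in IGF1 libraries. The groups overlapped because control replicate 2 was the highest of all. The fitted log2 fold change was 0.77 (SE 0.39, limma adjusted p = 0.148), and 1.23 without control replicate 2 (adjusted p = 4.2e-11). It was 1.24 with length and GC trends removed by the longest annotated transcript and 0.13 with the length implied by the steps, which was 648 bases.

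Sod2, the manganese enzyme (chr17:13006846-13040063), was at 45.6, 51.5 and 45.5 FPKM in control and 35.5, 34.8 and 38.0 FPKM in IGF1 libraries. It was lower in every IGF1 library. Limma gave a log2 fold change of -0.39 (SE 0.10, limma adjusted p = 0.0477), and -0.33 without control replicate 2 (adjusted p = 6.0e-05), and it turned to 0.02 without the length and GC trends and to 0.34 with the implied length. The ratio of Sod1 to Sod2 within a library was 7.38, 17.1 and 7.63 in control and 22.5, 22.9 and 21.3 in IGF1 libraries, higher in each IGF1 library than in any control library. A trend with gene length can move this ratio, and with trends on the implied length and GC removed the order of the log2 fold changes turned, to 0.13 for Sod1 and 0.34 for Sod2. Sod3, the extracellular enzyme, was at most 0.0607 FPKM.

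Catalase (chr2:103453849-103485160) was at 63.4, 29.9 and 63.6 FPKM in control and 23.9, 21.2 and 23.7 FPKM in IGF1 libraries. Control replicate 2 was close to the IGF1 libraries but above all of them. On the log2 scale the fold change was -1.08 (SE 0.30), past a 2-fold difference, with a limma adjusted p = 0.0523 that missed the threshold, and it was -1.43 without control replicate 2 (adjusted p = 3.4e-09). Removing the length and GC trends left -0.68. The ratio of Prdx2 to Cat was 3.81, 16.3 and 3.82 in control and 20.5, 22.8 and 20.7 in IGF1 libraries.

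Txn1, the electron donor of most of the peroxiredoxins (chr4:57943373-57956411), was at 308.5, 689.9 and 312.3 FPKM in control and 643.4, 655.0 and 657.9 FPKM in IGF1 libraries. As for Sod1, control replicate 2 was the highest of the 6. The fit gave a log2 fold change of 0.69 (SE 0.34, limma adjusted p = 0.138), and 1.07 without control replicate 2 (adjusted p = 9.3e-11). Txnrd1, the cytosolic reductase that recharges it, went the other way in the mean, with a log2 fold change of -1.02 (limma adjusted p = 0.0824). The ratio of Txn1 to Txnrd1 was 5.65, 34.3 and 5.73 in control and 34.5, 34.4 and 34.6 in IGF1 libraries. Control replicates 1 and 3 were about 6-fold below the rest, and control replicate 2 fell just under the IGF1 range.

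**Figure D2:**
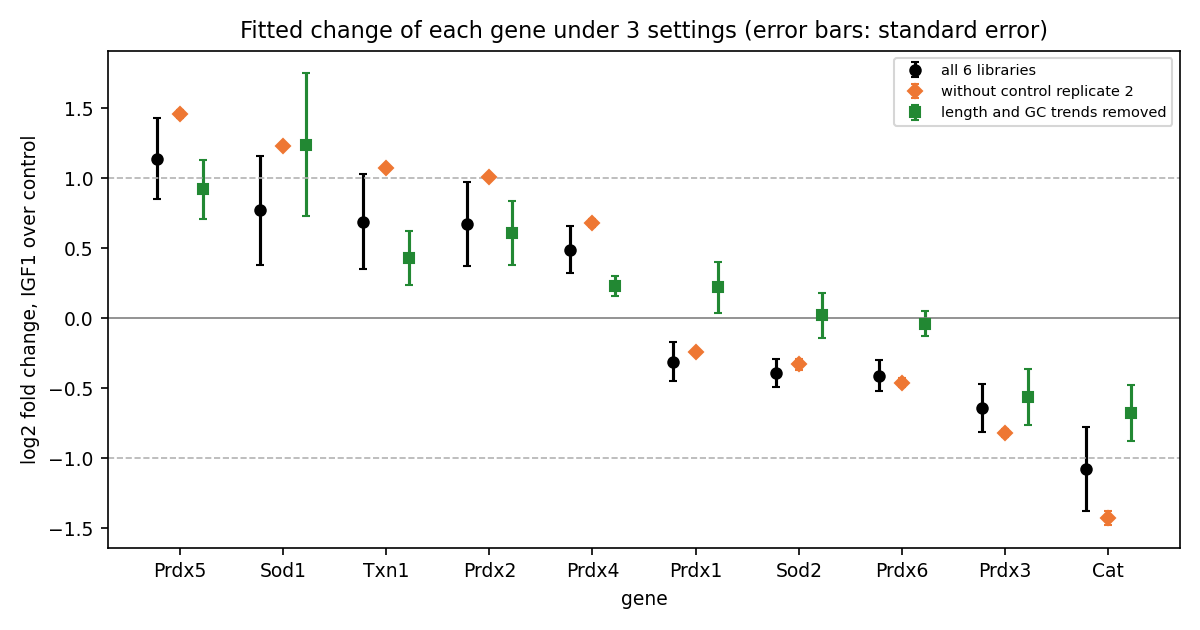
Fitted log2 fold change of each gene, IGF1 over control, with its standard error, for all 6 libraries (black), without control replicate 2 (orange) and after removal of length and GC trends (green), with dashed lines at a 2-fold difference. Prdx1 and Sod2 lie at 0.22 and 0.02 without the trends, and the other 8 genes keep their side of 0 under all 3 settings, with Prdx6 at -0.04 without the trends.

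The order of the levels differed between groups. In control replicates 1 and 3 it ran from Prdx1 through Sod1, Txn1, Prdx6, Prdx2, Prdx5, Prdx3, Cat and Prdx4 to Sod2. In the IGF1 libraries it ran from Sod1 through Txn1, Prdx2, Prdx5, Prdx1, Prdx6, Prdx4, Prdx3 and Sod2 to Cat. No neighbours overlapped in either order, but with all 3 control libraries 7 of 9 neighbours did, and only Prdx5 and Prdx3, and Prdx3 and Prdx4, were apart. Sod1 and Txn1 together made up 30.7%, 45.7% and 31.1% of the summed FPKM of the 10 genes in control and 45.0%, 45.0% and 45.4% in IGF1 libraries. The 10 genes summed to 2103, 3439 and 2120 FPKM in control and 3208, 3227 and 3234 FPKM in IGF1 libraries, which is 0.451%, 0.542% and 0.455% and then 0.472%, 0.476% and 0.477% of all FPKM of the library. Control replicate 2 had the highest sum on both scales.

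**Figure D3:**
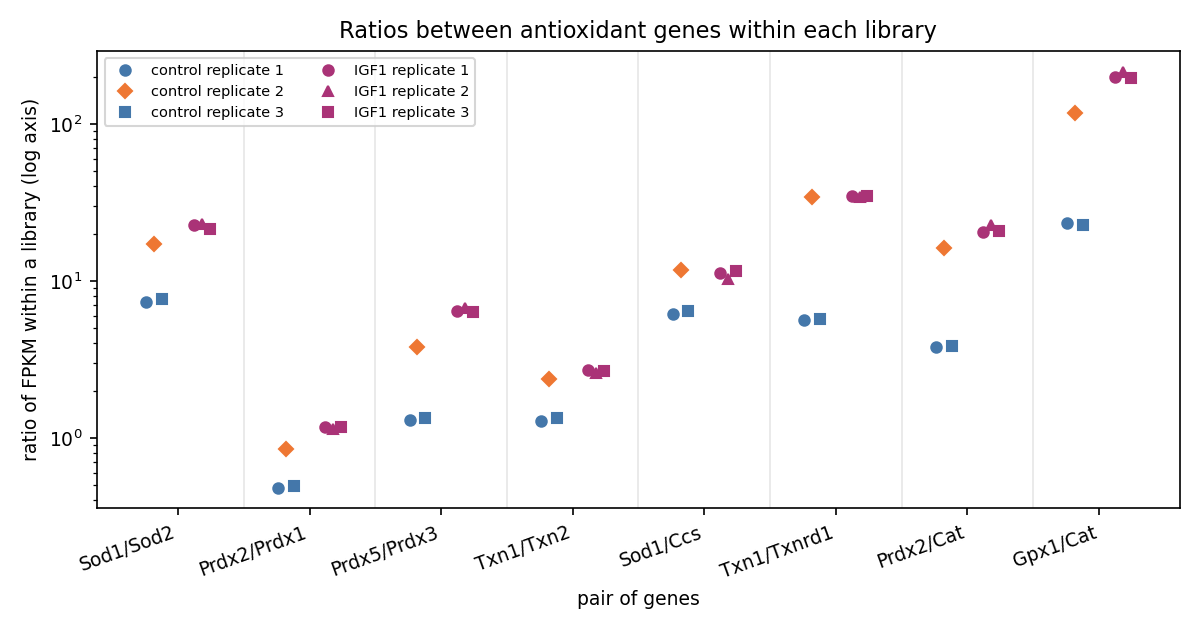
Ratio of the FPKM of gene pairs within a library (log axis), for control (blue, replicate 2 in orange) and IGF1 (purple) libraries. For the 8 pairs plotted, control replicates 1 and 3 lie below the IGF1 libraries, and control replicate 2 lies above them for Sod1/Ccs.

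The genes whose pattern over the 6 libraries was nearest to each of the 10 were sought among the 91 other genes of the family and its pathway, by the root mean square distance of centred log2(FPKM + 1). Prdx2 and Txn1 were nearest to each other (0.051). Sod1 was nearest to Slc25a37, a mitochondrial iron carrier (0.053), Prdx5 to Gpx1 (0.112) and Prdx4 to Ncf4, a subunit of the phagocyte oxidase (0.043). Cat was nearest to Nnt, the mitochondrial transhydrogenase that makes NADPH (0.061), and Prdx3 to Pex7, a peroxisomal import receptor (0.046). Prdx1 and Sod2 were both nearest to Glrx, glutaredoxin (0.054 and 0.034), and Prdx6 to Sqstm1, the autophagy receptor p62 (0.042).

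The wider pathway comprised 94 genes in 8 lists, of which 82 passed the filter. Of these, 1 was called higher and 7 lower, with a median log2 fold change of -0.28 beside -0.18 over all genes, and without control replicate 2 the calls were 9 higher and 23 lower, beside 12.3% and 20.6% of all genes. The groups did not overlap for 18 of the 82 genes on the higher side and 38 on the lower, beside 21.9% and 37.4% of all genes. The called share was 9.76%, beside 6.61% of all genes.

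In thioredoxin and peroxiredoxin recycling 0 of 19 tested genes were called higher and 4 lower (limma), beside 1.98% and 4.63% of all genes. The adjusted p alone was passed by 1 on the higher side and 7 on the lower, beside 6.26% and 14.1% of all genes. The median was -0.42. Beside Ero1l and Pdia3 the genes called lower were Sesn1 and Sesn2, of the sestrins, which are stress-induced regulators of mTORC1. The other sestrin, Sesn3, had overlapping groups and a log2 fold change of 0.34 (limma adjusted p = 0.219). Sesn1 was at 44.8, 22.1 and 44.5 FPKM in control and 14.5, 17.0 and 16.6 FPKM in IGF1 libraries (log2 fold change -1.10, limma adjusted p = 0.0481), and Sesn2 fell by 1.09 on the log2 scale (limma adjusted p = 0.0429). Sesn1 and Sesn2 were lower in each IGF1 library than in any control library. Srxn1, which repairs overoxidised peroxiredoxins, was at 6.72, 3.48 and 7.06 FPKM in control and 3.27, 3.27 and 2.76 FPKM in IGF1 libraries (-0.68, limma adjusted p = 0.0769). Txnip, the inhibitor of thioredoxin, had a log2 fold change of -0.54 (limma adjusted p = 0.0604), and the mitochondrial pair Txn2 (-0.05) and Txnrd2 (-0.14) had overlapping groups.

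Ccs, the copper chaperone that loads Sod1, was at 54.8, 75.3 and 54.2 FPKM in control and 71.4, 77.4 and 70.1 FPKM in IGF1 libraries (log2 fold change 0.26, limma adjusted p = 0.200). The groups overlapped. Atox1, which carries copper to the secretory pathway, rose from 131.4, 422.0 and 136.0 FPKM in control to 688.9, 697.7 and 677.2 FPKM in IGF1 libraries (log2 fold change 1.80, limma adjusted p = 0.0472). Slc31a1, the copper importer CTR1, fell by 1.42 on the log2 scale (limma adjusted p = 0.0412), from 21.8, 9.76 and 21.6 FPKM to 6.11, 5.72 and 5.11 FPKM. The list of dismutase maturation, with 4 genes tested, thus held a call in each direction, beside 1.98% of all genes called higher and 4.63% lower.

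Gpx1, a peroxide-reducing enzyme at a higher FPKM than any of the 10 genes in each library, was at 1486, 3509 and 1453 FPKM in control and 4722, 4568 and 4609 FPKM in IGF1 libraries, without overlap (log2 fold change 1.24, limma adjusted p = 0.0669). Gsr, the reductase that renews glutathione, was at 56.1, 16.1 and 59.2 FPKM in control and 14.1, 14.5 and 14.2 FPKM in IGF1 libraries (log2 fold change -1.35, limma adjusted p = 0.0761). None of the 5 tested glutathione peroxidase and reductase genes was called by limma or by voom. At an unadjusted limma p under 0.05 were 4, beside 5582 of all 10449 tested genes. Without overlap 3 were higher and 1 lower, beside 21.9% and 37.4% of all genes. Without control replicate 2 the calls were 2 higher and 1 lower, beside 12.3% and 20.6% of all genes. In the mean the peroxidase Gpx1 and the reductase Gsr stood on opposite sides, as Txn1 and Txnrd1 did, but none of them was called. The Txn1 groups overlapped, and the mitochondrial pair Txn2 (-0.05) and Txnrd2 (-0.14) did not stand on opposite sides. The ratio of Gpx1 to Cat was 23.4, 117 and 22.9 in control and 198, 215 and 195 in IGF1 libraries.

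All 10 tested genes of NADPH supply were lower in every IGF1 library than in any control library, beside 37.4% of all genes on that side, with a median log2 fold change of -1.01. None was called by limma or by voom, and Pgd alone passed the limma adjusted p, beside 14.1% of all genes on the lower side. All 10 had an unadjusted limma p under 0.05, beside 5582 of all 10449 tested genes. Without control replicate 2, 8 were called lower, beside 20.6% of all genes. Pgd, an enzyme of the pentose phosphate pathway, was at 62.3, 51.3 and 63.5 FPKM in control and 41.4, 41.0 and 42.0 FPKM in IGF1 libraries (log2 fold change -0.49, limma adjusted p = 0.0430). Me2, mitochondrial malic enzyme, had a log2 fold change of -1.30 (limma adjusted p = 0.0509).

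Nfe2l2, which encodes NRF2, was at 51.0, 19.4 and 50.2 FPKM in control and 13.6, 14.2 and 14.6 FPKM in IGF1 libraries. It was lower throughout (log2 fold change -1.32, limma adjusted p = 0.0525). Keap1, which marks NRF2 for degradation, had overlapping groups (-0.38). Of the 19 tested genes of the NRF2 pathway limma called none, beside 6.61% of all genes, and voom called 1. At an unadjusted limma p under 0.05 were 11, beside 5582 of all 10449 tested genes. The limma adjusted p alone was passed by 3 (Maff at 0.93 higher, Sqstm1 and Pgd lower), beside 6.26% of all genes higher and 14.1% lower. Without control replicate 2, 3 were called higher and 4 lower, beside 12.3% and 20.6% of all genes. Foxo3, a factor that drives Sod2 and Cat in other settings, was at 3.78, 7.15 and 3.52 FPKM in control and 8.29, 7.66 and 7.77 FPKM in IGF1 libraries (log2 fold change 0.67, limma adjusted p = 0.0762), and Sirt3, a mitochondrial deacetylase, had a log2 fold change of 0.41 (limma adjusted p = 0.0543).

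Among the oxidant sources none of 8 tested genes was called by limma or by voom. At an unadjusted limma p under 0.05 were 5, beside 5582 of all 10449 tested genes. Cybb, the catalytic subunit of the phagocyte oxidase, was at 1.42 to 2.71 FPKM over all libraries, with overlapping groups. Its partner Ncf1 was at 29.3, 43.0 and 28.2 FPKM in control and 48.8, 50.5 and 51.3 FPKM in IGF1 libraries (log2 fold change 0.59, limma adjusted p = 0.0553), while Rac1, a GTPase that activates the oxidase, was on the lower side (-0.83, limma adjusted p = 0.0616). The neutrophil and monocyte markers, 14 of 18 of which passed the filter, summed to 3733 to 5979 FPKM in control and 5963 to 6002 FPKM in IGF1 libraries, with Mpo, at 1613 to 1705 FPKM, overlapping between the groups, and Ly6g at most 0.200 FPKM. The members of this list went opposite ways. Limma called 4 of the 14 lower, beside 4.63% of all genes. These were Ngp (-3.39), Camp (-2.32), S100a9 (-2.25) and S100a8 (-1.90), which encode proteins of neutrophil granules and cytosol (log2 fold changes). Elane (2.03, limma adjusted p = 0.0726) and Prtn3 (1.14, limma adjusted p = 0.0808), proteases of early granules, were higher without overlap and without a call. B cell markers (9 of 12 past the filter) summed to 124.2 to 503.5 FPKM in control and 478.3 to 497.5 FPKM in IGF1 libraries. T and NK cell markers (4 of 11) summed to 388.9 to 812.8 and 809.0 to 825.4 FPKM, mostly Nkg7, with Cd3e at most 0.206 FPKM and the NK receptor gene Klrd1 called higher (0.397, 1.31 and 0.691 FPKM in control and 5.84, 6.25 and 5.37 FPKM in IGF1 libraries). Megakaryocyte markers (9 of 12) summed to 127.2 to 145.8 and 154.5 to 164.9 FPKM, with a median log2 fold change of 0.01. Of these 2 were called higher, Treml1 (log2 fold change 1.48) and Gp1bb (1.12), beside 1.98% of all genes. Cd9 passed the adjusted p but not the fold on the lower side (log2 fold change -0.53, limma adjusted p = 0.0369). In the B, T and NK and myeloid sums control replicate 2 lay at or near the IGF1 level, as it did for Prdx2, Sod1 and Txn1. The mature lineage mix in the study's methods for HSC analysis also includes T cell, B cell and myeloid markers. The part of lymphoid, myeloid and megakaryocyte cells in the results was not tested.

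In peroxisome import and biogenesis, which supplies the compartment of catalase, limma called 0 of 15 tested genes higher and 2 lower, beside 1.98% and 4.63% of all genes. Past the adjusted p alone were 1 higher and 3 lower, beside 6.26% and 14.1% of all genes. Voom called 0 of the 15, and 10 had an unadjusted limma p under 0.05, beside 5582 of all 10449 tested genes. Pex13, of the docking complex, was at 17.4, 11.1 and 15.8 FPKM in control and 6.58, 6.81 and 6.003 FPKM in IGF1 libraries (log2 fold change -1.06, limma adjusted p = 0.0330). Pex2, a ubiquitin ligase of the import machinery, had a log2 fold change of -1.07 (limma adjusted p = 0.0419). Pex5, the import receptor, had overlapping groups (-0.21).

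**Figure D4:**
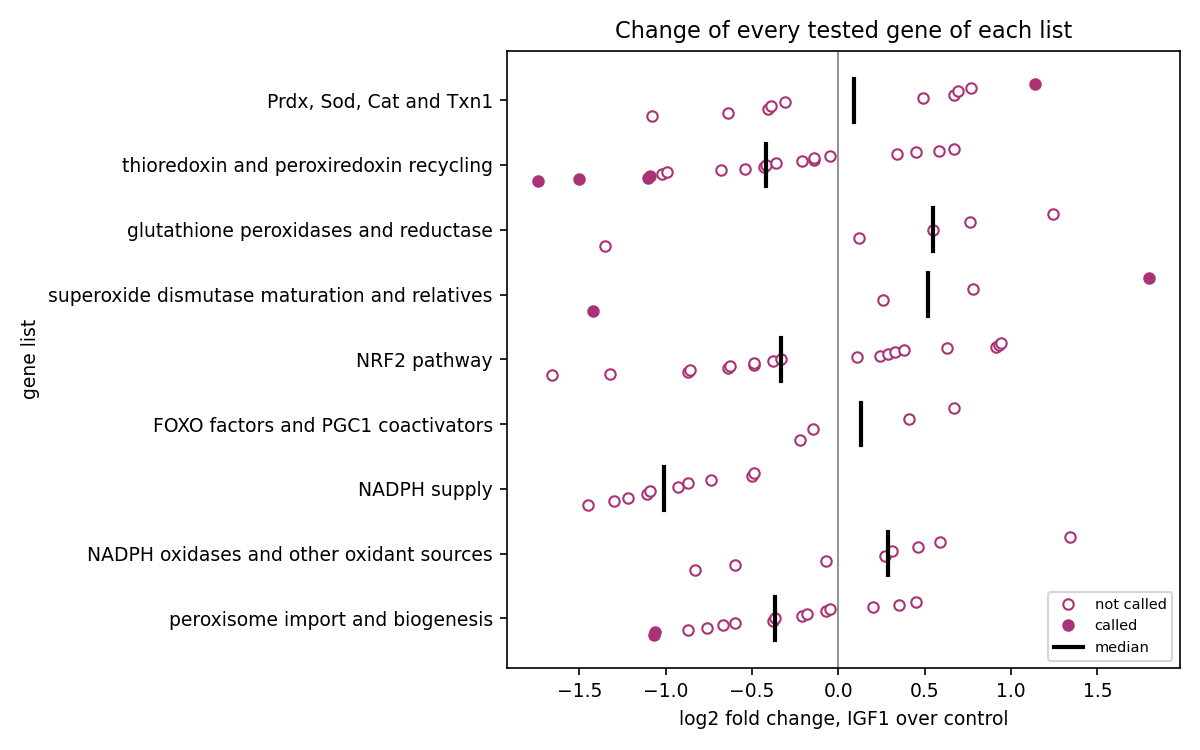
Log2 fold change, IGF1 over control, of every tested gene of the 10 and of the 8 pathway lists (points, filled where called), with the median of each list as a bar. The 10 genes lie on both sides of 0 with 1 call, and NADPH supply lies wholly below 0 with a median of -1.01 and no call.

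Differences between the groups went with gene length. Over all tested genes the median log2 fold change was 0.43 in the shortest of 5 equal length classes (implied length 125 to 1715 bases) and -0.24, -0.45, -0.43 and -0.11 in the longer classes in turn. In the shortest class lay 7 of the 10. Of these Prdx2, Prdx4, Prdx5, Sod1 and Txn1 were above its median, and Prdx1 and Prdx3 were below 0. Prdx6 and Cat lay in the second class, below its median of -0.24, and Sod2 lay in the fourth, above its median of -0.43. With the length and GC trends removed, limma called 0 of the 10, and 304 of all 10101 genes. At an unadjusted limma p under 0.05 were 5 of the 10, beside 4848 of all genes. With control replicate 2 left out as well, 2 of the 10 were called, beside 2092 of all genes. Quantile normalization brought Sod1 to 0.12, Txn1 to 0.11 and Prdx2 to 0.28 on the log2 scale, and Prdx1 to -0.98. The part of length in each value was not tested.

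**Figure D5:**
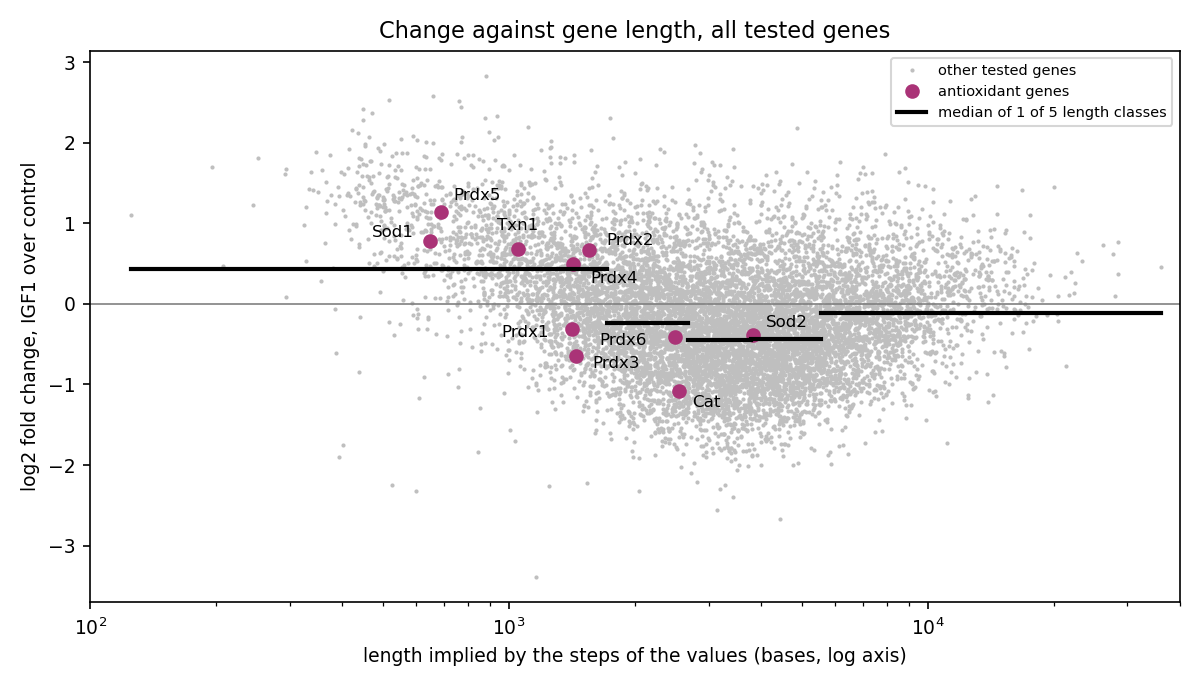
Log2 fold change, IGF1 over control, of all tested genes (grey) against the length implied by the steps of their values (log axis), with the 10 antioxidant genes in purple and the median of each of 5 length classes as a bar. Sod1 and Prdx5 lie among the shortest genes, where the median is 0.43, and Cat lies well below the median of its class.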

How the data were processed

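RNA-seq values of sorted BM HSCs were used from 3 control and 3 IGF1 libraries, grouped by the sample titles. The study's methods name fastp and RSEM, whereas the submitters' processing notes name fastp, HISAT2 and StringTie with GRCm38 (mm10); libraries were made with a stranded kit, and whether counting used strand is not given in the sources used here. The authors deposited 1 value per gene and library, taken as FPKM because the values are not whole, sum to 466135 to 680285 and rise in whole steps of each gene. The steps gave whole reads for 15640 of 15640 genes above 0 in any library (tolerance 0.01 reads; 100% of values), with an approximate depth scale.

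The test was limma (version 3.58.1, R 4.3.3) with a variance trend, fitted to log2(FPKM + 1) of every gene that reached 1 FPKM in 3 or more libraries. A call needed both a fold over 2 and an adjusted p under 0.05 (Benjamini-Hochberg). The pseudocount understates the fold of low genes. An exact permutation test of 3 against 3 libraries cannot go below p = 0.1 and was not used. The limma script was tested on simulated data. Length and GC came from GENCODE M21 and were found for 96.7% of tested genes. Promoters are those of RefSeq. Tables were joined with Python 3.11.15.

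The genes and lists were chosen with earlier results of these data known. Named genes are the 10 family members, 12 fixed partners, up to 2 genes of each pathway list with the smallest adjusted p and the nearest gene of each of the 10. Sesn1, Sesn3, Pdia3, P4hb, Pex5 and the marker genes are outside this rule and were picked with their values known. Alternatives were scalings, pseudocounts, filters, removal of length and GC trends, voom on recovered reads, a replicate block and leaving out each library. Trend removal on the length implied by the steps, and scaling or trend removal combined with leaving out control replicate 2, were chosen after seeing the data.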

Additional observations from a re-analysis of the deposited data

How the results depend on the processing

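Prdx2, Prdx4, Prdx5, Sod1 and Txn1 stayed above 0 and Prdx3 and Cat below 0 under all 21 alternatives. Prdx5 ranged from 0.13 to 1.81, Sod1 from 0.12 to 1.86, Txn1 from 0.11 to 1.41 and Cat from -1.43 to -0.64 (log2 fold change), and Prdx5 was called under 11 of the 21. The other 3 genes turned. Prdx1 was 0.22 with length and GC trends removed, 0.42 with that and without control replicate 2, and 0.10 with 75th percentile scaling without that library. Sod2 was 0.02, 0.19 and 0.01 under the same settings and 0.34 with the implied length. Prdx6 was 0.00 with the implied length and 0.03 with the trends removed and without control replicate 2. The cause was not tested.

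The counts below are of the 10 genes called (1 in the report), of those past the adjusted p alone (4), of pathway genes called (8) and of all genes called (691). Leaving out 1 library at a time gave 0 to 5, 0 to 10, 0 to 32 and 0 to 3438. The upper ends are without control replicate 2, and without any other single library limma called 0 genes, although 685 to 1181 genes, and 0 to 2 of the 10, passed a 2-fold difference at an unadjusted p under 0.05. The 10 genes past the adjusted p alone were 1 with 75th percentile scaling, TMM scaling or voom, 2 with quantile normalization, a pseudocount of 5 or no variance trend, and 0 with no filter on low values. The 10 genes called were 0 with quantile normalization and with no filter. In both 6 of the 10 were at an unadjusted limma p under 0.05, beside 5438 of 10449 and 6781 of 15640 genes in turn. Pathway calls were 5 with 75th percentile scaling, TMM scaling, quantile normalization or voom, 3 with a pseudocount of 5 and 4 with no filter. All genes called were 223 with a pseudocount of 5, 374 with no filter and 1041 with voom on recovered reads. With length and GC trends removed the 4 counts were 0, 1, 3 and 304, and 0, 1, 3 and 305 with the implied length. Without control replicate 2 they were 2, 9, 18 and 2092 with the trends removed, 6, 9, 32 and 3117 with 75th percentile scaling, and 5, 9, 29 and 3193 with TMM scaling.

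Whether the replicate numbers pair the libraries could not be told from the values. Correlations of same-numbered libraries' deviations were -0.057, -0.050 and 0.006, and not every library correlated best with its own number. Control replicate 2 set most of the deviations in the control group, so these correlations could not show a pairing. With the replicate block limma called 0 of the 10 genes, 0 past the adjusted p, 0 pathway genes and 0 of all genes, with 5, 18 and 1780 at an unadjusted p under 0.05 (for the last 2 counts, also past a 2-fold difference). Without the fold, 4791 of all 10449 genes were at an unadjusted limma p under 0.05.

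Depth did not limit the 10 genes, whose counting error was at most 4.04%. The 3 libraries a group, 1 of them apart, limit the tests.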
